A study of Homo sapiens with 6 samples.

Results

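The genes described here are 8 caspase and death receptor genes, CASP8, CASP9, CASP10, FAS, TNFRSF10A, TNFRSF10B, FADD and CFLAR, taken by symbol from 61498 genes in the deposited tables. All 8 were found and all 8 passed the filter on low counts, which left 20081 genes for testing. RNA was measured by RNA-seq of total RNA after removal of ribosomal RNA, in 6 libraries from 3 human cell lines, 2 libraries a line. RPMI-8226-R is a derivative of the myeloma line RPMI-8226 that is resistant to bortezomib, an inhibitor of the proteasome used against multiple myeloma. RPMI-8226 is its parental line, and NCI-BL2171 is the third line. All cells were labelled as B-lymphocytes and as having received no treatment, so no library shows the cells during exposure to bortezomib. The labels name 1 resistant derivative and do not say how it was selected, nor whether libraries sharing a line are separate cultures; p-values therefore measure a spread between libraries that may be technical.

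Death receptors at the cell surface start the extrinsic pathway of apoptosis. FAS binds FAS ligand, and TNFRSF10A and TNFRSF10B (also called DR4 and DR5) bind TRAIL. A bound receptor gathers the adaptor FADD, which holds the initiator caspases CASP8 and CASP10, while CFLAR (c-FLIP) resembles CASP8 without its protease activity and competes for places in that complex. CASP9 is the initiator of the intrinsic pathway and is activated on the apoptosome after cytochrome c leaves mitochondria. Proteasome inhibitors are known to affect this machinery in myeloma cells, through the turnover of its proteins and through stress-induced transcription of TNFRSF10B.

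Library totals were 25695927 and 26860081 estimated reads for RPMI-8226-R, 29052199 and 27947579 for RPMI-8226, and 26790603 and 23952370 for NCI-BL2171. Markers of plasma cells summed to 3629 to 3721 TPM (a level per length, scaled to the same sum in each library) in RPMI-8226-R and to 1706 to 1808 TPM in RPMI-8226, against 47.89 to 50.5 TPM in NCI-BL2171, where TNFRSF17, JCHAIN, IRF4 and SLAMF7 were at 0. Most of each sum was 1 gene: JCHAIN averaged 3177 TPM in RPMI-8226-R and 1439 TPM in RPMI-8226, and XBP1 46.23 TPM in NCI-BL2171. PRDM1 and SLAMF7 were lower in RPMI-8226-R than in RPMI-8226, with means of 11.88 against 25.11 TPM and 0.136 against 0.378 TPM. The other 6 were higher. The 8 B cell markers summed to 179 to 186 TPM in RPMI-8226-R, 5467 to 5626 TPM in RPMI-8226 and 5.071 to 5.077 TPM in NCI-BL2171. CD74, the invariant chain, was the highest of them, with a mean of 136.7 TPM in RPMI-8226-R and 5520 TPM in RPMI-8226. Among these markers MS4A1 and CD22 were at 0 in RPMI-8226-R, and MS4A1, PAX5 and BLK were at 0 in NCI-BL2171. By contrast, all 8 erythroid markers were at 1 TPM or more in NCI-BL2171, summing to 17510 to 18080 TPM, against 93.53 to 104.7 TPM in RPMI-8226-R and 24.96 to 27.58 TPM in RPMI-8226. HBG1, a gamma globin, was the highest erythroid marker there, at 13380 ± 289 TPM (SD, n = 2), while ALAS2, GATA1 and HEMGN were among those at 0 in RPMI-8226-R and RPMI-8226. Markers of T and NK cells summed to at most 6.917 TPM in any library, and those of monocytes and granulocytes to at most 1.944 TPM in RPMI-8226-R, 3.917 TPM in RPMI-8226 and 53.21 TPM in NCI-BL2171. Most of that last sum was LYZ, with a mean of 50.96 TPM, and only 1 of the 8 was at 1 TPM or more in both libraries labelled NCI-BL2171. These libraries go against their label and are called the libraries labelled NCI-BL2171; the part of this in the differences below was not tested, and in bulk RNA fewer cells of a type and less RNA per cell cannot be told apart.

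In RPMI-8226-R the adaptor FADD and the initiator caspase CASP8 were higher than in RPMI-8226, and the receptor FAS and the inhibitor CFLAR were lower. Promoters of the first 3 of these genes are shown, since they moved furthest on counts. RefSeq (GRCh38.p14) held a promoter for 5 of the 8 genes (CASP8, CASP9, FAS, FADD and CFLAR), each searched over the 250 bases before the most upstream RefSeq start. The stretches printed lie upstream of every GENCODE 29 exon of the gene and run 5′ to 3′ on the plus strand, with capitals marking a GC box (GGGCGG or CCGCCC, the SP1 motif) or an AP-1 motif (TGANTCA). They cover chr2:201233213-201233442 for CASP8, chr11:70203046-70203162 for FADD and chr10:88990548-88990581 for FAS.
CASP8: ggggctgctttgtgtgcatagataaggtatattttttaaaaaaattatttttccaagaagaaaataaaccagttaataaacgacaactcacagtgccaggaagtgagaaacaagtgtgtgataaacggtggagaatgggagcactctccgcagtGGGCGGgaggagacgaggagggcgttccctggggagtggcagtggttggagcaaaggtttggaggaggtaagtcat
FADD: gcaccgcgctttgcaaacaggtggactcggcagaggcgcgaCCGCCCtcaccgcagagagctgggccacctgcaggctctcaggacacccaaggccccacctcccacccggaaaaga
FAS: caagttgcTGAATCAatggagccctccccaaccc

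Both strands of the 250 bases were searched, and overlapping matches were counted. A GC box was found once for CASP8, 8 times for CASP9, once for FAS, 2 times for FADD and once for CFLAR; 42.6% of 35116 promoters of the same length held one. The AP-1 motif was found once, for FAS, and 6.57% of promoters held it. The E box CACGTG, the motif of MYC and MAX, was in none of the 5 windows (6.34% of promoters held it), and neither was the ETS motif CCGGAAGT (3.42%). The CASP8 window had 6 CpG dinucleotides, the CASP9 window 25, the FAS window 14, the FADD window 32 and the CFLAR window 17, beside a median of 11 over all promoters. A match or its absence is a statement on these letters alone.

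Levels are given in TPM and differences come from the fit to counts, edgeR's quasi-likelihood test with Benjamini-Hochberg adjustment over all 20081 genes, as a log2 fold change ± SE. A gene passed at an adjusted p under 0.05. The plot of levels by library shows every value.

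**Figure D1:**
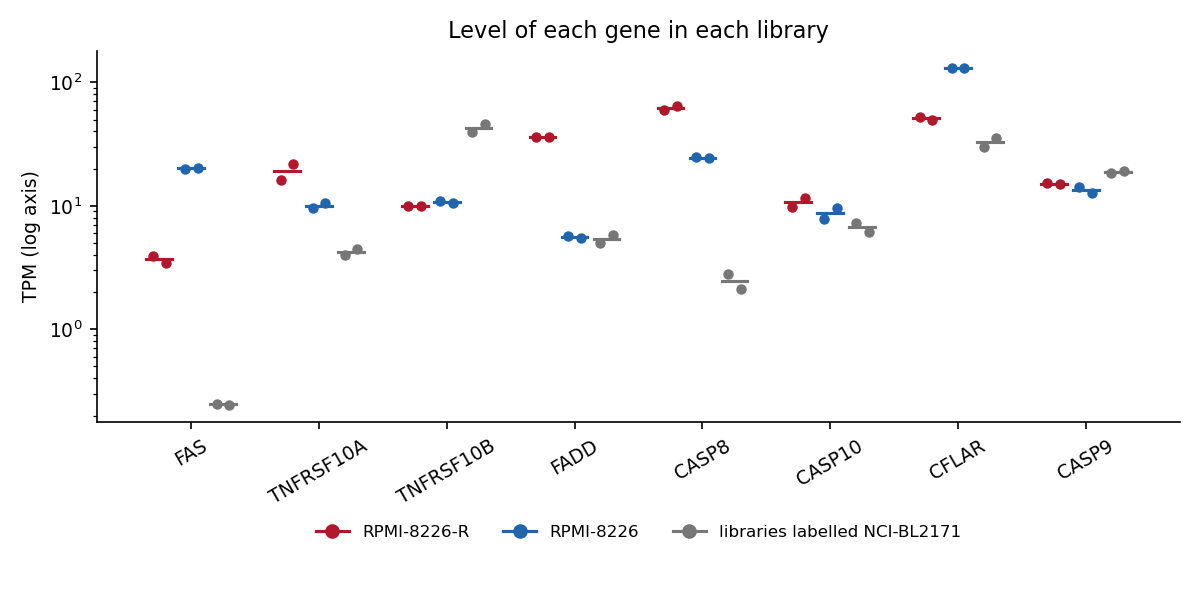
TPM (log axis) of the 8 genes in each of the 6 libraries: points are libraries and bars are means of the 2 libraries of a line. CASP8 and FADD sit highest in RPMI-8226-R, FAS and CFLAR highest in RPMI-8226, and TNFRSF10B highest in the libraries labelled NCI-BL2171.

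FAS (ENSG00000026103.24, chromosome 10, 88990582 to 89015785, plus strand) had 3.957 and 3.456 TPM in RPMI-8226-R, against 19.86 and 20.42 TPM in RPMI-8226. The libraries labelled NCI-BL2171 had 0.25 and 0.244 TPM, from 19 and 12 reads. The 3 lines did not overlap, and RPMI-8226 was the highest. FAS fell 7.46-fold in RPMI-8226-R relative to RPMI-8226 (log2 fold change -2.90 ± 0.12, adjusted p = 7.8e-15 by edgeR), and 8.66% of the genes tested were as far down. It was nonetheless 13.5-fold higher in RPMI-8226-R than in the libraries labelled NCI-BL2171 (3.76 ± 0.21, edgeR adjusted p = 6.0e-13) and 101-fold higher in RPMI-8226 than in them (6.66 ± 0.17, edgeR adjusted p = 1.1e-18). ACTA2, a smooth muscle actin gene that overlaps FAS on the opposite strand, averaged 4.5 reads in RPMI-8226-R, 33.42 in RPMI-8226 and 38.8 in the libraries labelled NCI-BL2171. FAS itself averaged 226 reads in RPMI-8226-R and 1578 in RPMI-8226, and 15.5 in the libraries labelled NCI-BL2171, fewer there than ACTA2. Since the use of strand in counting is not known, reads of the pair may have been split between them, which bears most on the folds against those libraries. On log2(TPM + 1) the log2 differences of FAS were smaller and still passed, -2.17 for RPMI-8226-R relative to RPMI-8226, and 1.91 in RPMI-8226-R and 4.08 in RPMI-8226 against the libraries labelled NCI-BL2171.

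TNFRSF10A (ENSG00000104689.10, chromosome 8, 23190452 to 23225126, minus strand) had 16.22 and 21.89 TPM in RPMI-8226-R, against 9.518 and 10.49 TPM in RPMI-8226. It had 4.0 and 4.505 TPM in the libraries labelled NCI-BL2171. No 2 lines overlapped in level, and the spread was widest in RPMI-8226-R. It rose 1.65-fold in RPMI-8226-R (0.73 ± 0.10, edgeR adjusted p = 3.0e-06), and 18.9% of the genes tested were as far up. It was 3.07-fold higher in RPMI-8226-R than in the libraries labelled NCI-BL2171 (1.62 ± 0.11, edgeR adjusted p = 1.6e-11), and 1.86-fold higher in RPMI-8226 than in them (0.89 ± 0.11, edgeR adjusted p = 3.7e-07). TNFRSF10A-DT, a transcript on the opposite strand that overlaps the gene, averaged 486.5 reads in RPMI-8226-R, 541 in RPMI-8226 and 331.5 in the libraries labelled NCI-BL2171. Whether the counting used strand is not given in the sources used here, so reads of this pair may have been split between them.

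TNFRSF10B (ENSG00000120889.13, chromosome 8, 23020133 to 23069179, minus strand) had 9.919 and 10.05 TPM in RPMI-8226-R, 10.93 and 10.62 TPM in RPMI-8226, and 39.95 and 46.08 TPM in the libraries labelled NCI-BL2171. Its level was highest in the last of these lines, as was that of CASP9, and no library there overlapped the other 4. On counts it was 1.24-fold lower in RPMI-8226-R than in RPMI-8226 (-0.31 ± 0.09, edgeR adjusted p = 0.00595). That call was lost without RPMI-8226-R replicate 1 (-0.19, edgeR adjusted p = 0.0986), and it was lost as well when only the 4 libraries of both lines were used (-0.23, edgeR adjusted p = 0.0695), with library totals alone (-0.10) and on log2(TPM + 1) (-0.10). TNFRSF10B was 4.83-fold lower in RPMI-8226-R than in the libraries labelled NCI-BL2171 (-2.27 ± 0.09, edgeR adjusted p = 1.1e-15) and 3.89-fold lower in RPMI-8226 than in them (-1.96 ± 0.09, edgeR adjusted p = 1.1e-14). RHOBTB2, whose end overlaps that of TNFRSF10B on the opposite strand, averaged 264.5 reads in RPMI-8226-R and 51.5 in RPMI-8226, against 544.5 and 631 reads of TNFRSF10B.

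Of the summed TPM of the 3 receptors, FAS made up 13.1% and 9.77% in RPMI-8226-R, 49.3% and 49.2% in RPMI-8226, and 0.566% and 0.48% in the libraries labelled NCI-BL2171. TNFRSF10A made up 53.9% and 61.8% in RPMI-8226-R, 23.6% and 25.3% in RPMI-8226, and 9.05% and 8.86% in the libraries labelled NCI-BL2171. In the last of these lines TNFRSF10B took 90.4% and 90.7% of the sum. The most abundant of the 3 receptor messages was thus TNFRSF10A in RPMI-8226-R, FAS in RPMI-8226 and TNFRSF10B in the libraries labelled NCI-BL2171.

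FADD (ENSG00000168040.5, chromosome 11, 70203163 to 70207390, plus strand), the adaptor shared by these receptors, had 35.87 and 36.01 TPM in RPMI-8226-R, against 5.69 and 5.482 TPM in RPMI-8226. The libraries labelled NCI-BL2171 had 5.009 and 5.836 TPM and overlapped RPMI-8226 in TPM. FADD rose 4.9-fold in RPMI-8226-R relative to RPMI-8226 (2.29 ± 0.10, edgeR adjusted p = 5.1e-14), and 2.5% of the genes tested were as far up, the smallest such share among the 8 genes in this comparison. Relative to the libraries labelled NCI-BL2171 it was 5.91-fold higher in RPMI-8226-R (2.56 ± 0.11, edgeR adjusted p = 2.6e-15). RPMI-8226 and the libraries labelled NCI-BL2171 differed by 0.27 ± 0.12 (edgeR adjusted p = 0.0396), a call lost in 11 of 16 alternatives, among them without RPMI-8226 replicate 1 (0.27, adjusted p = 0.11), without RPMI-8226 replicate 2 (0.28, adjusted p = 0.102) and without NCI-BL2171 replicate 1 (0.19, adjusted p = 0.227). Its listed length was 1708 bases in every library, so its TPM and its counts rest on the same length.

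CASP8 (ENSG00000064012.24, chromosome 2, 201233443 to 201287711, plus strand), the initiator caspase of the receptor complex, had 59.59 and 64.02 TPM in RPMI-8226-R, against 24.74 and 24.43 TPM in RPMI-8226. In the libraries labelled NCI-BL2171 it had 2.805 and 2.113 TPM. The lines did not overlap, and their order was RPMI-8226-R, RPMI-8226 and then NCI-BL2171. CASP8 rose 2.01-fold in RPMI-8226-R relative to RPMI-8226 (1.00 ± 0.08, edgeR adjusted p = 5.2e-10), and 13% of the genes tested were as far up. It was 18.8-fold higher in RPMI-8226-R than in the libraries labelled NCI-BL2171 (4.23 ± 0.10, edgeR adjusted p = 3.7e-19) and 9.38-fold higher in RPMI-8226 than in them (3.23 ± 0.11, edgeR adjusted p = 6.4e-17).

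CASP10 (ENSG00000003400.16, chromosome 2, 201182881 to 201229406, plus strand), the second initiator caspase of that complex, had 9.842 and 11.65 TPM in RPMI-8226-R, against 7.847 and 9.54 TPM in RPMI-8226, and 7.321 and 6.106 TPM in the libraries labelled NCI-BL2171. On counts the libraries of RPMI-8226-R and RPMI-8226 overlapped, and the difference did not pass (0.04 ± 0.10, edgeR adjusted p = 0.755). It was below 0 without RPMI-8226 replicate 1 (-0.12), without RPMI-8226-R replicate 2 (-0.01) and with an offset for effective length (-0.03), and it passed with library totals alone (0.26, edgeR adjusted p = 0.0298). CASP10 was 2.3-fold higher in RPMI-8226-R than in the libraries labelled NCI-BL2171 (1.20 ± 0.10, edgeR adjusted p = 1.0e-09) and 2.24-fold higher in RPMI-8226 than in them (1.16 ± 0.10, edgeR adjusted p = 2.0e-09). The listed length of CASP10 was 4671 to 4730 bases in RPMI-8226-R, 4335 to 4341 in RPMI-8226 and 2732 to 3314 in the libraries labelled NCI-BL2171, and with an offset for effective length the log2 fold change of RPMI-8226-R against the libraries labelled NCI-BL2171 was 0.55 and still passed. On log2(TPM + 1) the difference between RPMI-8226 and the libraries labelled NCI-BL2171 was 0.33 and did not pass (limma adjusted p = 0.0962).

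CFLAR (ENSG00000003402.21, chromosome 2, 201116104 to 201176687, plus strand), the inhibitor that competes with CASP8, had 52.59 and 49.38 TPM in RPMI-8226-R, against 131.6 and 131.3 TPM in RPMI-8226. It had 29.9 and 35.26 TPM in the libraries labelled NCI-BL2171. RPMI-8226 was the highest line and the 3 lines did not overlap. On counts CFLAR fell 1.63-fold in RPMI-8226-R relative to RPMI-8226 (-0.71 ± 0.07, edgeR adjusted p = 2.9e-08), and 31.2% of the genes tested were as far down. The mean TPM differed 2.58-fold, and with an offset for effective length the log2 fold change was -1.69 (edgeR adjusted p = 1.7e-06). The direction was the same in all 16 alternatives, from -1.69 to -0.49. CFLAR was 2.52-fold higher in RPMI-8226-R than in the libraries labelled NCI-BL2171 (1.34 ± 0.08, edgeR adjusted p = 1.5e-12) and 4.12-fold higher in RPMI-8226 than in them (2.04 ± 0.08, edgeR adjusted p = 8.9e-16). The mean TPM of RPMI-8226-R was 1.56-fold that of the libraries labelled NCI-BL2171, and with the length offset that log2 fold change was 0.53 and still passed; the mean TPM of RPMI-8226 was 4.04-fold theirs.

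The gap between both scales for CFLAR goes with its listed length, the mean length that the deposited tables give for the gene in a library. It was 1555 to 1691 bases in RPMI-8226-R, 852 to 870 bases in RPMI-8226 and 963 to 978 bases in the libraries labelled NCI-BL2171. GENCODE 29 holds 25 transcripts of CFLAR, 18 of them coding, of 435 to 14672 bases, and 13 of the 25 are shorter than 1000 bases. CFLAR is known to make a long form and short forms of its protein, which are not separated in these tables by gene.

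CASP9 (ENSG00000132906.18, chromosome 1, 15490832 to 15526534, minus strand), the apoptosome's initiator caspase, had 15.17 and 14.99 TPM in RPMI-8226-R, against 14.13 and 12.66 TPM in RPMI-8226, and 18.35 and 18.98 TPM in the libraries labelled NCI-BL2171. Of the 8 genes it had the smallest ratio between the highest and the lowest line in mean TPM. On counts it did not pass between RPMI-8226-R and RPMI-8226 (-0.19 ± 0.10, edgeR adjusted p = 0.0856), and the sign depended on the scale: it was 0.16 on log2(TPM + 1) and 0.02 with library totals alone. Without RPMI-8226-R replicate 1 it passed (-0.25, edgeR adjusted p = 0.0474). CASP9 was lower in RPMI-8226-R than in the libraries labelled NCI-BL2171 (-0.55 ± 0.09, edgeR adjusted p = 2.4e-05), and lower in RPMI-8226 than in them (-0.35 ± 0.09, edgeR adjusted p = 0.00197).

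Between RPMI-8226-R and RPMI-8226, 3 of the 8 genes were higher (FADD, CASP8 and TNFRSF10A), 3 were lower (FAS, CFLAR and TNFRSF10B) and 2 did not pass. Of all genes tested 65.6% passed in this comparison, 28.5% higher and 37.2% lower, so the share of the 8 that passed is near the background and is no result about them. In CPM the libraries of both lines did not overlap for 7 of the 8, all but CASP10, as for 80.6% of all genes. Fitted on the 4 libraries of these lines alone, 3 of the 8 were higher and 2 lower, the call of TNFRSF10B being lost. Their median log2 fold change was -0.08, beside -0.12 over all genes tested. Relative to the libraries labelled NCI-BL2171, 6 of the 8 were higher and 2 lower in RPMI-8226-R, where 77.4% of all genes passed, 39.2% higher and 38.2% lower, and where 87.3% did not overlap in CPM. The count was again 6 higher and 2 lower in RPMI-8226, where 76.7% of all genes passed, 41.1% higher and 35.6% lower, and where 88.4% did not overlap. All 8 passed and none overlapped in both of these comparisons. The median of the 8 was 1.48 in RPMI-8226-R and 1.02 in RPMI-8226 relative to those libraries, beside 0.00 and 0.09 over all genes tested. The comparisons share libraries, so their counts are not independent of each other.

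**Figure D2:**
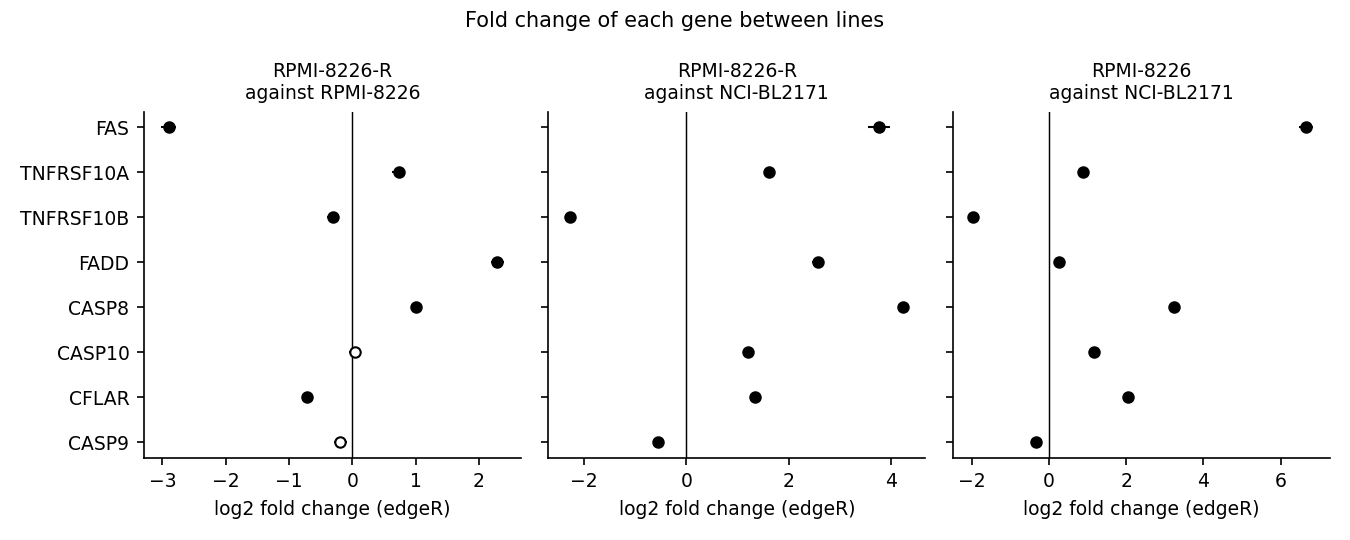
Log2 fold change (edgeR, counts) of the 8 genes in the 3 comparisons, with bars of 1 SE: filled points passed at an adjusted p under 0.05 and open points did not. FADD lies furthest to the right and FAS furthest to the left in the left panel, and the panels have different horizontal scales.

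Ratios of TPM between the genes within a library show how the balance of the receptor complex's messages differed. With 2 libraries a line they are given without a test. Those with CFLAR or CASP10 rest on listed lengths that differ between the lines. The listed length of CASP8 was 1625 and 2205 bases in the 2 libraries labelled NCI-BL2171. CFLAR stood to CASP8 at 0.882 and 0.771 in RPMI-8226-R, 5.32 and 5.38 in RPMI-8226, and 10.7 and 16.7 in the libraries labelled NCI-BL2171. RPMI-8226-R was the only line with more CASP8 than CFLAR per length, and both libraries showed it. CASP10 stood to CASP8 at 0.165 and 0.182 in RPMI-8226-R and at 0.317 and 0.391 in RPMI-8226. It stood at 2.61 and 2.89 in the libraries labelled NCI-BL2171, per length the only line with more CASP10 than CASP8. In CPM, RPMI-8226 also had more CASP10 than CASP8 (means of 44.72 and 38.61). CASP8 held 70.4% and 70.6% of the summed TPM of the 3 initiator caspases in RPMI-8226-R, 53.0% and 52.4% in RPMI-8226, and 9.85% and 7.77% in the libraries labelled NCI-BL2171. CASP9 stood to CASP8 at 0.255 and 0.234 in RPMI-8226-R, 0.571 and 0.518 in RPMI-8226, and 6.54 and 8.98 in the libraries labelled NCI-BL2171. Among all 8 genes the highest level was that of CASP8 in RPMI-8226-R, CFLAR in RPMI-8226 and TNFRSF10B in the libraries labelled NCI-BL2171, and the lowest was that of FAS in RPMI-8226-R, FADD in RPMI-8226 and FAS in the libraries labelled NCI-BL2171. CFLAR held 25.9% and 23.4% of the summed TPM of the 8 genes in RPMI-8226-R, 58.7% and 58.4% in RPMI-8226, and 27.8% and 29.6% in the libraries labelled NCI-BL2171.

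**Figure D3:**
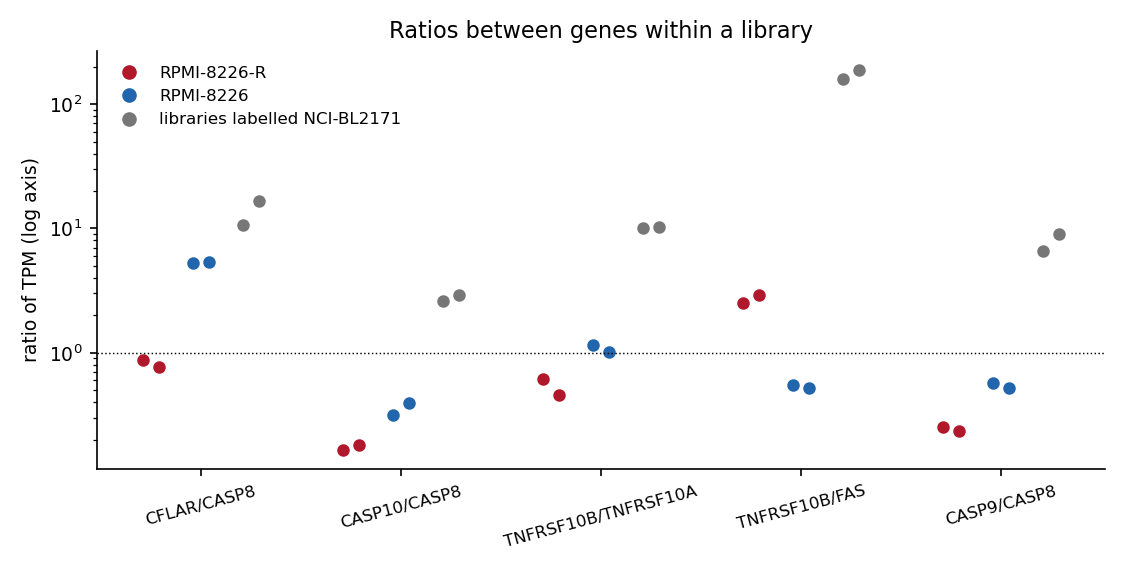
Ratio of TPM (log axis) between pairs of the genes in each of the 6 libraries, each point being a library and the dotted line a ratio of 1. CFLAR to CASP8 lies below 1 in both RPMI-8226-R libraries (0.882 and 0.771) and above 1 in the other 4.

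CFLAR, CASP10 and CASP8 lie next to each other on chromosome 2 and are transcribed in the same direction. In RPMI-8226-R against RPMI-8226 the 3 moved differently, CFLAR at -0.71, CASP10 at 0.04 and CASP8 at 1.00 on the log2 scale. Of the 9 other tested protein-coding genes within 300 kb, 5 were higher, 1 lower and 3 did not pass, a share called near the 65.6% of all genes. Their median was 0.39, beside -0.12 over all genes. They ranged from -2.02 ± 0.08 for CLK1, a splicing kinase, to 2.09 ± 0.13 for TRAK2, an adaptor for mitochondrial transport. In RPMI-8226 against the libraries labelled NCI-BL2171 all 3 genes were higher. Of their 9 neighbours 4 were higher, 4 lower and 1 did not pass, from -1.70 for STRADB to 1.61 for CLK1. In that comparison 76.7% of all genes passed, 41.1% higher and 35.6% lower, so the counts are no result about these genes.

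**Figure D4:**
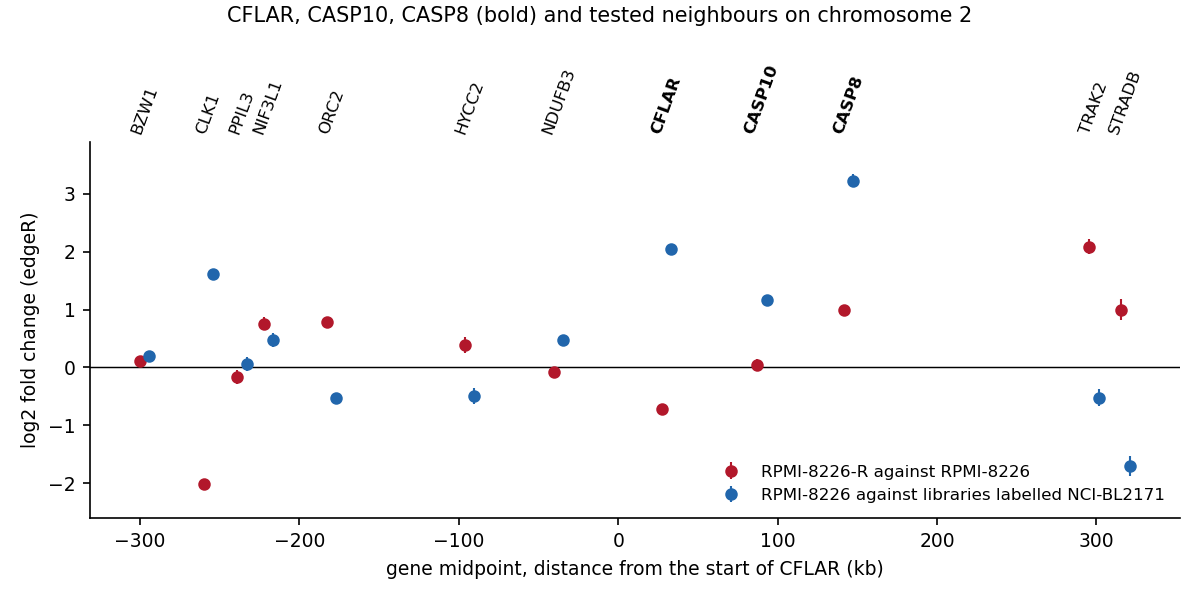
Log2 fold change (edgeR, bars of 1 SE) of CFLAR, CASP10, CASP8 (bold) and the 9 tested neighbours by distance of the gene's midpoint from the start of CFLAR in kb. Red points compare RPMI-8226-R with RPMI-8226, and blue points RPMI-8226 with the libraries labelled NCI-BL2171. Red points of adjacent genes lie on both sides of 0.

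TNFRSF10A and TNFRSF10B also lie close together, on chromosome 8, with the decoy receptor TNFRSF10D between them. Of 6 tested neighbours within 300 kb, 3 were higher in RPMI-8226-R than in RPMI-8226, 1 was lower and 2 did not pass, again near the share of all genes. RHOBTB2 rose most (2.26 ± 0.22). TNFRSF10D, which binds TRAIL without passing on a full death signal, fell 2.23-fold (-1.16 ± 0.17, edgeR adjusted p = 5.2e-06), with 2.289 and 1.915 TPM in RPMI-8226-R and 3.73 and 3.498 TPM in RPMI-8226. It had no read in the libraries labelled NCI-BL2171, so that it was at least 58.1-fold higher in RPMI-8226-R and at least 129-fold higher in RPMI-8226 against a floor of 3 counts per library. The decoys TNFRSF10C, TNFRSF11B and TNFRSF6B had no read in any library.

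The other genes of the pathway were read from 9 lists of 69 genes in all, of which 59 were tested. Their counts of calls stand beside the background of the same comparison, which for RPMI-8226-R relative to RPMI-8226 was 65.6% of all genes called and a median of -0.12. Among 6 death ligands only TNFSF10 and TNFSF12 were tested. TNFSF10, which encodes TRAIL, had 2.841 and 2.567 TPM in RPMI-8226-R, against 13.5 and 13.33 TPM in RPMI-8226, and fell 6.29-fold (-2.65 ± 0.17, edgeR adjusted p = 1.6e-11). In the libraries labelled NCI-BL2171 it had 1.067 and 0.736 TPM, and it was 3.19-fold higher in RPMI-8226-R and 20.1-fold higher in RPMI-8226 than in them (edgeR adjusted p = 1.7e-06 and 3.0e-14). FASLG, the ligand of FAS, had no read in any library, and TNF, LTA and TNFSF15 had 20, 20 and 10 reads over all 6. TNFSF12 (TWEAK) had no read in RPMI-8226-R or RPMI-8226 and 0.499 and 0.64 TPM in the libraries labelled NCI-BL2171, against which it was at least 7.19-fold lower in RPMI-8226-R and at least 6.73-fold lower in RPMI-8226.

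Of 5 other death receptors 2 rose, 1 fell, 1 did not pass and 1 was not tested. TNFRSF1A, the receptor of TNF, had 104.3 and 108.2 TPM in RPMI-8226-R, against 21.91 and 23.36 TPM in RPMI-8226, and rose 3.61-fold (1.85 ± 0.08, edgeR adjusted p = 2.1e-14). It was 5.97-fold higher in RPMI-8226-R than in the libraries labelled NCI-BL2171. NGFR, the low-affinity neurotrophin receptor, had 1 and 2 reads in RPMI-8226-R, against 280 and 309 in RPMI-8226; summed reads in RPMI-8226 were 196 times those in RPMI-8226-R, with a 95% counting interval of 66.9 to 955. Summed reads in the libraries labelled NCI-BL2171 were 84.7 times those in RPMI-8226-R (28.6 to 413). TNFRSF25 (DR3) had no read in the libraries labelled NCI-BL2171 and was at least 349-fold higher in RPMI-8226-R and at least 182-fold higher in RPMI-8226. TNFRSF21 (DR6) was 4.26-fold higher in RPMI-8226 than in those libraries (2.09 ± 0.10, edgeR adjusted p = 3.4e-14).

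Of 14 adaptors and ubiquitin regulators of the receptor complexes, 5 rose in RPMI-8226-R, 7 fell and 2 did not pass, beside 28.5% of all genes higher and 37.2% lower. Their median was -0.29 over the 13 with more than 3 reads in each line, beside -0.12 over all genes. RIPK1, the kinase that couples these receptors to survival or death, had 6.285 and 7.065 TPM in RPMI-8226-R, against 0.86 and 0.819 TPM in RPMI-8226, and rose 6.7-fold (2.74 ± 0.15, edgeR adjusted p = 1.2e-12). CASP8AP2, a partner of CASP8, rose 2.82-fold (1.49 ± 0.10, edgeR adjusted p = 5.3e-11). TNFAIP3 (A20), a ubiquitin-editing inhibitor of NF-kB, had 1.184 and 1.2 TPM in RPMI-8226-R, against 37.7 and 40.05 TPM in RPMI-8226 (-5.13 ± 0.10, edgeR adjusted p = 5.1e-20). BIRC3 (cIAP2), a ubiquitin ligase of these complexes, fell 12-fold (-3.58 ± 0.11), and TRAF1, its adaptor, fell 4.96-fold (-2.31 ± 0.23). TRAF1 and BIRC3 were nevertheless 45.1-fold and 9.15-fold higher in RPMI-8226-R than in the libraries labelled NCI-BL2171, and 224-fold and 110-fold higher in RPMI-8226 than in them. RIPK1 was lower in RPMI-8226 than in those libraries (-0.79 ± 0.16), and RBCK1, a subunit of the linear ubiquitin ligase, was lower in RPMI-8226-R than in them (-0.75 ± 0.09). FAF1, a FAS-associated factor, had no read in the 4 RPMI-8226-R and RPMI-8226 libraries, and 130 and 143 TPM in the libraries labelled NCI-BL2171; it was at least 1530-fold lower in RPMI-8226-R and at least 1430-fold lower in RPMI-8226 than in them.

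On the intrinsic side, 5 of 7 genes of the apoptosome and its inhibitors rose in RPMI-8226-R, 1 fell and 1 did not pass, beside 28.5% of all genes higher and 37.2% lower. Their median was 0.41, beside -0.12 over all genes, and none moved by 2-fold on counts. In mean TPM BID alone did, at 27.11 TPM in RPMI-8226-R against 12.55 TPM in RPMI-8226 (2.16-fold). Relative to the libraries labelled NCI-BL2171, APAF1, the apoptosome's scaffold, and BID, which links CASP8 to mitochondria, were lower in RPMI-8226-R (-1.21 ± 0.10 and -1.11 ± 0.11), while XIAP, an inhibitor of caspases, was higher (1.48 ± 0.09). In RPMI-8226 BID and HTRA2, a mitochondrial protease, were lower than in those libraries (-1.65 ± 0.12 and -1.08 ± 0.10), and XIAP and BIRC5 (survivin) were higher (0.77 ± 0.09 and 0.58 ± 0.07).

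Among 8 other caspases, 6 were tested, of which 2 rose, 2 fell and 2 did not pass in RPMI-8226-R, with a median of -0.10. The number called was 2, not 4, without RPMI-8226 replicate 1 and also without RPMI-8226-R replicate 2. CASP6, an executioner, had 25.32 and 26.28 TPM in RPMI-8226-R, against 4.595 and 6.42 TPM in RPMI-8226 (1.79 ± 0.15, edgeR adjusted p = 1.0e-09). CASP5 and CASP14 had no read in any library. CASP1, the inflammatory caspase, had no read in the libraries labelled NCI-BL2171 and was at least 228-fold higher in RPMI-8226-R and at least 245-fold higher in RPMI-8226. CASP4 was 62.9-fold higher in RPMI-8226-R and 77.9-fold higher in RPMI-8226 than in those libraries. CASP6 and CASP2 were lower in RPMI-8226 than in them (-1.67 ± 0.15 and -0.27 ± 0.10).

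Among 8 caspase substrates, 4 rose in RPMI-8226-R, 2 fell and 2 did not pass, with a median of 0.25 over the 7 with more than 3 reads in each line. DFFB, the nuclease that cuts DNA in apoptosis, rose 2.3-fold (1.20 ± 0.14, edgeR adjusted p = 1.3e-07). GSDMD, the pore former of pyroptosis, was 27.4-fold higher in RPMI-8226-R and 26.1-fold higher in RPMI-8226 than in the libraries labelled NCI-BL2171, and PARP1, a DNA repair enzyme that caspases cleave, was 2.24-fold and 1.89-fold higher. ROCK1, a kinase of membrane blebbing, was lower in RPMI-8226-R than in them (-0.50 ± 0.08), and DFFB was lower in RPMI-8226 (-0.63 ± 0.14). GSDME, another pore former, had no read in RPMI-8226-R, which was at least 40.6-fold below the libraries labelled NCI-BL2171, and 2 reads in RPMI-8226, where summed reads in those libraries were 113 times higher, with a 95% counting interval of 30.9 to 939. Of the 3 necroptosis genes, MLKL, the executor, had 21.48 and 20.84 TPM in RPMI-8226-R, against 4.648 and 6.872 TPM in RPMI-8226 (1.57 ± 0.12, edgeR adjusted p = 1.6e-10). ZBP1, a sensor of nucleic acids, had 0.058 and 0.439 TPM in RPMI-8226-R, against 1.573 and 2.103 TPM in RPMI-8226 (-3.59 ± 0.51, edgeR adjusted p = 3.9e-06). RIPK3, the kinase of MLKL, did not pass between these lines, with 26 reads in RPMI-8226-R and 36 in RPMI-8226, and it had 1 read in the libraries labelled NCI-BL2171, a ratio of reads of 26 (95% counting interval 4.27 to 1070) for RPMI-8226-R and of 36 (6.06 to 1460) for RPMI-8226. MLKL was 44.2-fold higher in RPMI-8226-R and 14.9-fold higher in RPMI-8226 than in those libraries, and ZBP1, without a read there, was at least 1.83-fold and at least 22.8-fold higher in the same lines.

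Of 14 transcription factors known to act on one or more of the 8 genes, 2 were higher in RPMI-8226-R, 9 lower and 3 did not pass, beside 28.5% of all genes tested higher and 37.2% lower. Their median was -1.31, beside -0.12 over all genes. DDIT3 (CHOP), a stress factor that acts on TNFRSF10B, had 4.544 and 4.598 TPM in RPMI-8226-R, against 135 and 149.8 TPM in RPMI-8226 (-5.38 ± 0.10, edgeR adjusted p = 4.7e-20), and 194.6 and 192.4 TPM in the libraries labelled NCI-BL2171. Its stress-response partner ATF4 fell 2.24-fold. IRF1, a factor of the interferon response, fell 5.16-fold, and NFKB2 and RELB, subunits of the alternative NF-kB pathway, fell 3.73-fold and 3.88-fold. ETS1 and FOXO3 fell 3.21-fold and 2.75-fold. MYC rose 4.82-fold (2.27 ± 0.06, edgeR adjusted p = 3.0e-17), with 576.5 and 638.6 TPM in RPMI-8226-R and 97.94 and 99.51 TPM in RPMI-8226. ETS1 and RELB were higher in both lines than in the libraries labelled NCI-BL2171, 52.5-fold and 26.9-fold in RPMI-8226-R, and 169-fold and 104-fold in RPMI-8226. DDIT3 was lower in RPMI-8226-R than in those libraries (-5.61 ± 0.10), and lower in RPMI-8226 than in them as well (-0.24 ± 0.07).

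**Figure D5:**
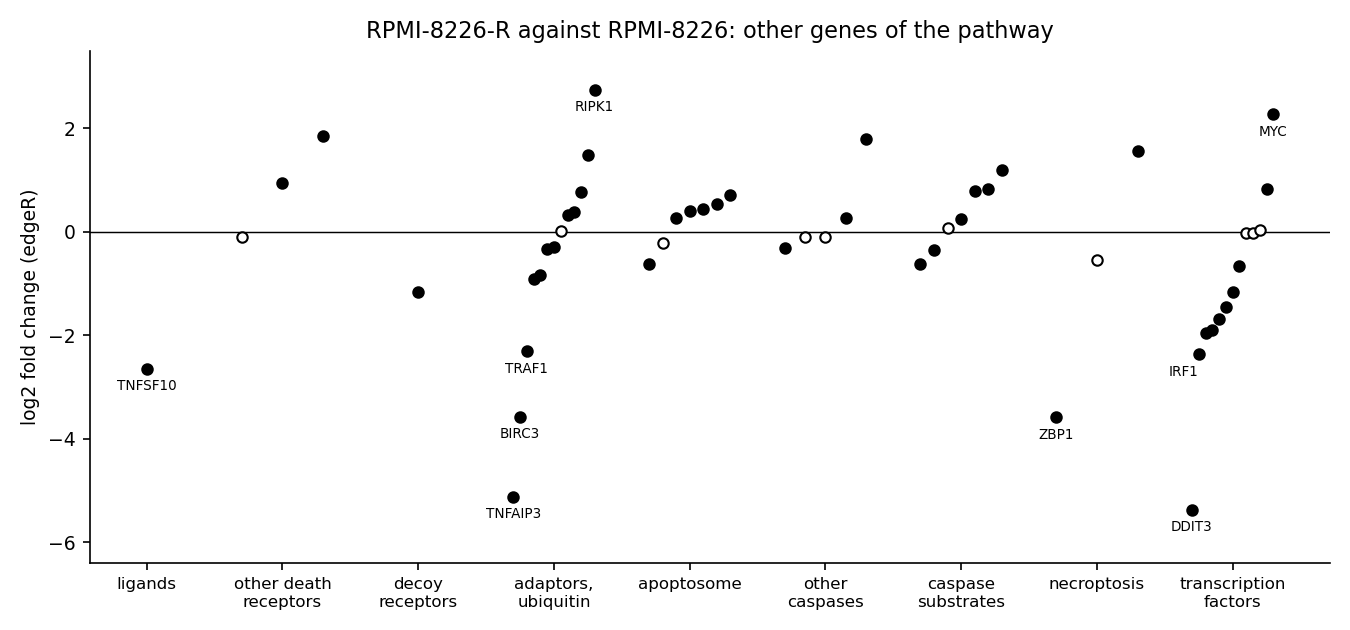
Log2 fold change (edgeR) in RPMI-8226-R against RPMI-8226 of tested pathway genes with more than 3 reads in each line, by list: filled points passed at an adjusted p under 0.05, open points did not, and genes at 2 or more either way are named. Most of the transcription factors drawn lie below 0, and the apoptosome genes stay within 1 of 0.

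The genes most like each of the 8 were found by the root mean square difference of centred log2 CPM over the 6 libraries; the measure is a description of these 3 lines. For FADD they were MYC (0.0996), COA7 (0.108) and BRI3BP (0.114), and for CASP8 they were IGSF10 (0.0765), ZBTB38 (0.145) and MOB3A (0.156). SMIM35 (0.109), DUSP5 (0.146) and ROR1 (0.163) were closest to FAS, and ELOVL7 (0.0629), SPINT1 (0.0635) and BCLAF3 (0.0757) to CFLAR. TNFRSF10A had ZNF652 (0.0548), B3GALNT2 (0.0567) and PBRM1 (0.0638), and TNFRSF10B had HDAC3 (0.0694), ERCC2 (0.0753) and ITGB1 (0.0788). CASP10 was closest to MSANTD4 (0.054), PPFIBP1 (0.0682) and RPS6KA5 (0.0744), and CASP9 to SLC39A3 (0.0236), NACA (0.0304) and NACA2 (0.0324), the last of which is a near copy of NACA. Genes within 0.25 numbered 1824 for CASP9, 697 for CASP10, 564 for TNFRSF10A, 226 for CFLAR and 168 for TNFRSF10B. For FADD, CASP8 and FAS they numbered 63, 36 and 9. Where many genes lie that close, the 3 named are not particular to the gene. None of the 8 had another of the 8 among its 3 nearest genes, which says little on how they relate, since so many genes were compared.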

How the data were processed

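Total RNA was sequenced after ribosomal RNA removal, per the labels' protocols. The authors deposited 1 table per library with estimated counts of reads per gene, TPM made from the same estimates, and a length and an effective length in bases, per the file headers. Each table had 61544 genes; 46 copies on the pseudoautosomal part of Y were added to their X copies. Per the submitters' processing notes the build is GRCh38.p13; positions are from GENCODE 29 (GRCh38). Quantifier, annotation and strand setting were not given in the sources used here, so reads of overlapping genes and of near copies could be split. For the libraries labelled NCI-BL2171, file names carry the opposite numbers to the titles; the titles' numbers were used.

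Deposited counts were rounded and tested in R 4.3.3 with edgeR 4.0.16, using TMM, filterByExpr (minimum count 10, total 15), a two-sided quasi-likelihood F test (all 6 libraries; 3 residual degrees of freedom) and Benjamini-Hochberg adjustment at 0.05. The typical coefficient of variation was 6.81%. Alternatives used DESeq2 1.42.0, limma 3.58.1 on log2(TPM + 1) and log2(TPM + 0.1), other scaling, filters, a length offset, fewer libraries and a replicate block. The main fit was also run on simulated counts in which few genes changed. That setting cannot test the scaling where most genes pass. Floors (3 counts per library) and intervals cover counting error only. Likeness used a prior of 0.1 CPM. From each list the text names genes past the threshold with a log2 fold change of 1 or more and at least 1 TPM in the higher line, genes without a read, and for NCI-BL2171 up to 2 rises and 2 falls; a few listed genes count in the totals and are not reported here by name or drawn. The 8 genes and all lists were chosen with earlier results of these data known.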

Additional observations from a re-analysis of the deposited data

How the results depend on the processing

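Of 384 values of the 8 genes under 16 alternatives in 3 comparisons, 358 kept their direction and side of the threshold, 18 lost the call, 2 gained it and 6 changed sign. Sign changes were confined to CASP9 and CASP10, which did not pass, in RPMI-8226-R against RPMI-8226: CASP9 was 0.02 with library totals alone, 0.16 on log2(TPM + 1) and 0.17 on log2(TPM + 0.1), and CASP10 was -0.03 with the length offset, -0.12 without RPMI-8226 replicate 1 and -0.01 without RPMI-8226-R replicate 2, within -0.12 to 0.21 over all libraries left out in turn. Lost calls were those of TNFRSF10B in the same comparison (5 alternatives) and, in RPMI-8226 against NCI-BL2171, of FADD (11) and CASP10 (2, both on TPM). The median over all genes in RPMI-8226-R against RPMI-8226 was -0.12, against 0.04 with library totals alone and 0.08 and 0.13 on the TPM scales, where genes called lower numbered 4557 and 4609, against 7461. In that comparison 2 death ligands were called without a filter, against 1, and 1 to 2 with 1 library left out; other caspases called numbered 2 to 4 with 1 library left out. With a minimum count of 50, 1 death ligand was called against NCI-BL2171 in each line, since TNFSF12 was then not tested. The cause of the other changes was not tested.

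Libraries with the same replicate number did not deviate together: the correlation of replicate differences was 0.0129 between RPMI-8226-R and RPMI-8226, -0.00351 between RPMI-8226-R and NCI-BL2171 and 0.0327 between RPMI-8226 and NCI-BL2171. With a replicate block, genes called higher and lower numbered 5665 and 7380 when RPMI-8226-R was set against RPMI-8226, where 3 of the 8 genes were again called higher and 3 lower, and no call of the 8 changed in any comparison. Depth limits FAS in the libraries labelled NCI-BL2171 most, at 19 and 12 reads.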
